A study of Homo sapiens and Mus musculus with 6 samples.

Results

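Neurog1, Neurog2, Neurog3, Neurod1, Neurod2, Olig1, Olig2, Olig3 and Atoh1 are 9 basic helix-loop-helix (bHLH) genes that direct neural fates, and their promoters were followed here through the promoter interactions called in mouse embryonic stem cells (mESCs). The members were taken by symbol. A call was kept if a member was among the gene names of the baited fragment or of the other end, and 172 of the 101841 mESC calls met this rule. They named 8 of the 9 genes, out of 17014 symbols named in the mESC list. The same symbols, ignoring case, were found in 26 of the 92929 calls of the human lymphoblastoid cell line GM12878, where they named 5 of the 9 genes.

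Promoter Capture Hi-C (CHi-C) ligates *Hin*dIII fragments that are close together in fixed nuclei and then enriches for fragments that carry promoters, the baits. The mESCs were of the J1 line (129S4/SvJae), grown on irradiated embryonic fibroblasts in serum and freed of these feeder cells by passaging, and gave 2 biological replicates. GM12878 cells gave 3, and neither cell type was treated beyond fixation in formaldehyde. Hi-C without capture was carried out on 1 mESC library. The authors called interactions jointly on all replicates of a cell type, so each call has 1 read count, a weighted average over the replicates that was rounded, and 1 CHiCAGO score, which grows as the p-value adjusted for distance gets smaller and is at least 5 in the deposited lists. No spread between replicates can be computed from them. All comparisons below are therefore descriptions, with exact Clopper-Pearson 95% intervals for shares and, for a count of 0, the share that 3 counts of the total would make. Both cover counting error only, since the calls of 1 bait and of neighbouring fragments are not independent. The depth of each replicate was not analysed here, and the depth behind each call is its listed reads, an average per replicate and not a total, which ran from 3 to 126 for the 172 calls with a median of 13, the same median as over all mESC calls.

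Proneural bHLH proteins such as the neurogenins and Atoh1 bind DNA as dimers with the broadly expressed E proteins and set progenitor cells on the path to neurons, while NeuroD proteins act later in the same cells and Olig proteins serve motor neuron and oligodendrocyte precursors. Id proteins block these dimers, and Notch signalling holds the proneural genes down in neighbouring cells through Hes repressors. In embryonic stem cells the neural bHLH genes are known as silent genes, many of them marked by Polycomb repression. Chromatin marks and expression were not analysed here.

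Among the contacts described here are that of Neurog1 with Pitx1, which encodes a homeodomain protein, and that of Olig1 with Olig2, the only call between members. The 250 bases upstream of the transcription start of each of these 4 genes are shown because these calls joined the fragments that hold them. They were read from NCBIM37 (mm9) on the strand of the gene, at chr13:56353525-56353774 for Neurog1 (minus strand), chr13:55932787-55933036 for Pitx1 (minus strand), chr16:91269764-91270013 for Olig1 (plus strand) and chr16:91225545-91225794 for Olig2 (plus strand). Capitals mark CANNTG, the E-box that bHLH dimers recognise, which reads the same on the opposite strand.
Neurog1: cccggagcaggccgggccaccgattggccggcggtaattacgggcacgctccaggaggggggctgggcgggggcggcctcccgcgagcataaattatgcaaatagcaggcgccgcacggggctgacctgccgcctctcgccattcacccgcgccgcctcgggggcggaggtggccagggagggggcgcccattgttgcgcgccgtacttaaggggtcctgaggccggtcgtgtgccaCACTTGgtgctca
Pitx1: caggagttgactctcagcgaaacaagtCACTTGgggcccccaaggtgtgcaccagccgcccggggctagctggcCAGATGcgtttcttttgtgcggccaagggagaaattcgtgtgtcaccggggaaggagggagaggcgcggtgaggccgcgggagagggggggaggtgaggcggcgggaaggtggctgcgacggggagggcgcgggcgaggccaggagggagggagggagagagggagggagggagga
Olig1: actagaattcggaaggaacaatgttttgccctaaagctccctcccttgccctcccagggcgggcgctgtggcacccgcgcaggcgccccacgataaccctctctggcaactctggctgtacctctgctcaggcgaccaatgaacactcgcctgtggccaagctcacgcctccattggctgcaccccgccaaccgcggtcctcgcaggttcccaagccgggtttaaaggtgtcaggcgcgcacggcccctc
Olig2: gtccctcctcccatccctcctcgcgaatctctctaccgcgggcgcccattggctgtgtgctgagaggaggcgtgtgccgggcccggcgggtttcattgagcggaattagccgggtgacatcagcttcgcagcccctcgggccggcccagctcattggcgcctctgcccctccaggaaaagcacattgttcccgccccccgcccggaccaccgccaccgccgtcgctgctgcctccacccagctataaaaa
The window held 1 such match upstream of Neurog1, 2 upstream of Pitx1 and 0 upstream of Olig1 and of Olig2. Over 22191 protein-coding promoters of the same length, 63.2% held at least 1 match. CpG dinucleotides numbered 27 upstream of Neurog1, 18 upstream of Pitx1, 18 upstream of Olig1 and 22 upstream of Olig2, against a median of 9 over these promoters.

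The number of calls differed widely among the members. Neurod2 had 59 calls at either end, Neurog1 had 39, Neurog2 had 30, Olig1 had 20 and Olig2 had 18, while the median of the 17157 baited fragments listed in mESCs was 4. Neurod2 had more calls than 99.2% of these fragments, Neurog1 more than 97.3% and Neurog2 more than 95.1%. Olig3 had 5 calls, Atoh1 had 2 and Neurog3 had 1. The 8 genes thus ranged from the lowest possible number of calls to the top percentile.

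**Figure D1:**
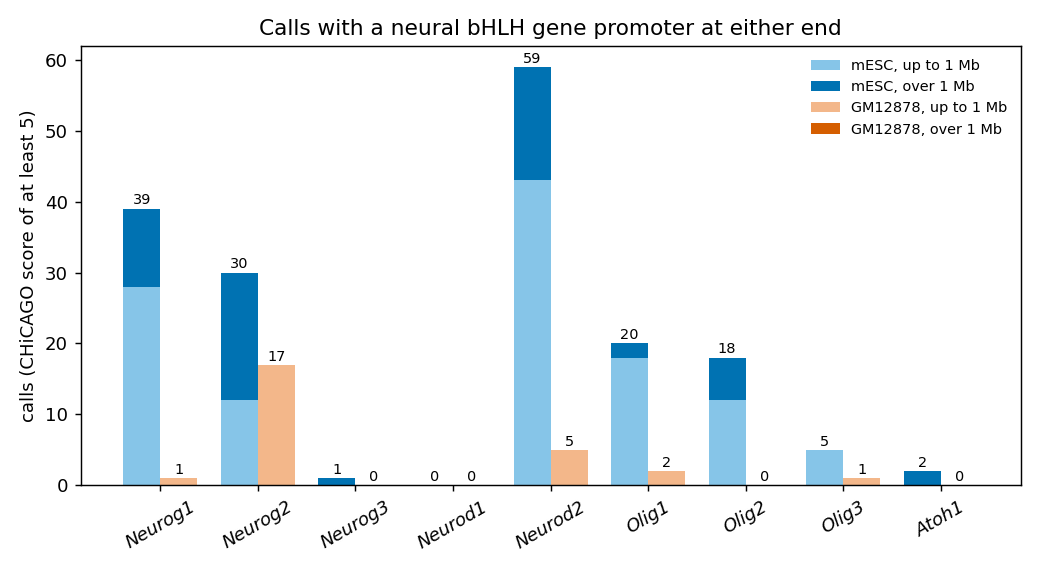
Number of calls with each neural bHLH promoter at either end in mESCs (blue) and GM12878 cells (orange), counted as listed, with the calls over 1 Mb in the darker shade. In mESCs 56 of the 172 calls spanned over 1 Mb, and in GM12878 cells 0 of 26 did.

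No call named Neurod1. The *Hin*dIII fragment with its annotated start, chr2:79296482-79304193 in mm9, was in no call, either as a bait or as an other end, and whether it was captured is not known from the calls. In GM12878 cells, the fragments with the annotated starts of NEUROG3, NEUROD1, OLIG2 and ATOH1 were likewise in no call.

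Long distances were frequent among the mESC calls of these promoters, as they were among those of other developmental regulators. Over 1 Mb were 56 of 172 calls, 32.6% (95% interval 25.6 to 40.1%), against 3.94% of all mESC calls, where *trans*-chromosomal calls are counted with those over 1 Mb here and below. The share was 21.3% (20.2 to 22.5%) for 5362 calls of other listed developmental regulators, transcription factors and signals of embryonic patterning, and 19% (11.8 to 28.1%) for 100 calls of 12 other proneural and neural bHLH genes. The median *cis*-chromosomal distance was 341 kb (219 to 426 kb), against 139 kb over all calls. No member call was *trans*-chromosomal, 0 of 172, which allows a share of up to 1.74% (3 of 172) and does not differ detectably from the 0.569% of all calls. The long calls came from 7 of the 8 genes: 18 from Neurog2, 16 from Neurod2, 11 from Neurog1, 6 from Olig2, 2 from Olig1, 2 from Atoh1 and 1 from Neurog3. Leaving out the calls of Neurog1, Neurog2, Neurod2, Olig1 or Olig2 in turn gave shares of 26.8 to 35.5%, the lowest of them without Neurog2.

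**Figure D2:**
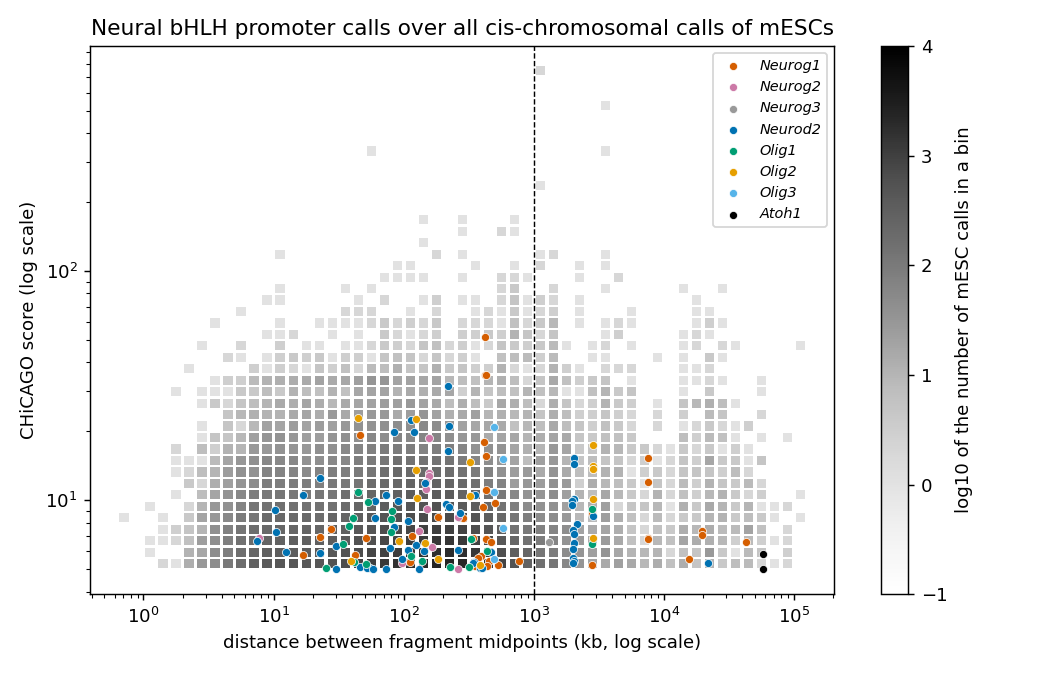
Distance between fragment midpoints (kb, log scale) and CHiCAGO score (log scale) of the neural bHLH promoter calls (coloured points, 1 colour per gene) over all *cis*-chromosomal calls of mESCs (grey, shaded by the number of calls in a bin). The dashed line stands at 1 Mb. The Neurog2 calls over 1 Mb are not drawn as points. The calls between Neurog1 and Pitx1 at 419 kb reach a score of 51.67, and the 2 Atoh1 calls lie farthest to the right, at 57.9 Mb.

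Promoters were frequent among the contacted fragments, in large part through Neurod2. Of the 172 calls, 85 were bait-to-bait interactions, 49.4% (41.7 to 57.1%), against 36.3% of all calls. Counting a pair called from both ends once gave 40.4% against 31.1%. Leaving out Neurod2, the gene with most promoter partners, gave 40.7%, near the 36.3% of all calls. No interval was computed for that share, so an excess without Neurod2 is not established. Of the 85, 26 spanned over 1 Mb, 30.6% (21.0 to 41.5%), against 4.62% of all bait-to-bait calls. The other listed regulators were close to the members in this, with 26.7% (24.8 to 28.5%) of 2281 bait-to-bait calls over 1 Mb. The 85 calls stood for 59 distinct promoter pairs, of which 26 were called from both ends. That is 44.1% of the pairs (31.2 to 57.6%), against 26.2% over all mESC promoter pairs. Scores of at least 10 were reached by 58 of 172 calls, 33.7% (26.7 to 41.3%), against 16.9% of all calls.

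The partners over long distances were largely other developmental regulators, those of the same list. Seen from the members, 23 of 87 partner ends in bait-to-bait calls were on the list, 26.4% (17.6 to 37.0%), against 3.87% of all such ends. Over 1 Mb the count was 17 of 26, 65.4% (44.3 to 82.8%), against 23.7%, and up to 1 Mb it was 6 of 61, 9.84% (3.70 to 20.2%), against 2.91%. The other listed regulators, taken as the starting point in the same way, had listed partners in 34.5% of ends, 41.3% over 1 Mb and 31.9% up to 1 Mb. Members thus lay below the other regulators up to 1 Mb. Over 1 Mb a difference from them was not detectable with each pair counted once, at 58.8% (32.9 to 81.6%) against 40.0%, or without Neurod2, at 7 of 13 ends, 53.8% (25.1 to 80.8%). Counted as distinct pairs, 10 of the 17 promoter partners beyond 1 Mb were listed regulators, Barx1, Msx2, Sim2 and 6 Hoxb genes among them. Only 2 of the 42 pairs within 1 Mb were, Neurog1 with Pitx1 and Olig1 with Olig2. The 6 listed ends up to 1 Mb came from these 2 pairs alone. Olig1 and Olig2, both on the list, were counted as partners of each other in each direction. An excess over the 2.91% of all ends is therefore not established up to 1 Mb. The list was matched to bait names only. The baits named uce and Gm11536, partners beyond 1 Mb that also hold annotated starts of Dlx6 and Hoxb3, were therefore counted as not listed.

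Neurog2, which specifies neurons of the cortex, ventral spinal cord and sensory ganglia, was baited on a fragment of 5499 bp at chr3:127333537-127339035 with 2517 bp upstream of its start. Its contacts lay almost wholly on one side. Of its 26 partner fragments, 25 were at higher coordinates, and 9 lay within 1 Mb. Tifa (19 reads, 156 kb, scores of 13.19 from Neurog2 and 18.77 from Tifa) and Alpk1 (19 reads, 148 kb, 12.03 and 11.16) encode an adaptor and a kinase of innate immune signalling. Among all mESC baits, those with other ends most like the Neurog2 set included Lhx8, a LIM homeobox gene 26.7 Mb away, with 4 fragments shared and a Jaccard index of 0.114, and Alpk1 (3 shared, 0.103). No call joined Neurog2 to Lhx8 itself.

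Neurog1, the proneural gene of cranial placodes and many sensory neurons, was baited on chr13:56349098-56355771. Its strongest partner was Pitx1, a gene of hindlimb and pituitary development, at 419 kb. The pair had 52 reads and scores of 51.67 from the Pitx1 bait and 35.21 from the Neurog1 bait, the highest call of each of these baits. Almost as high from Neurog1 was an unbaited fragment near the Pitx1 bait, at 428 kb, with 36 reads and a score of 35.19. The called area held 13 of 21 fragments across 114 kb, with 241 reads in sum. From Pitx1, 10 of 13 fragments across 65.8 kb around Neurog1 were called, with 168 reads in sum.

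**Figure D3:**
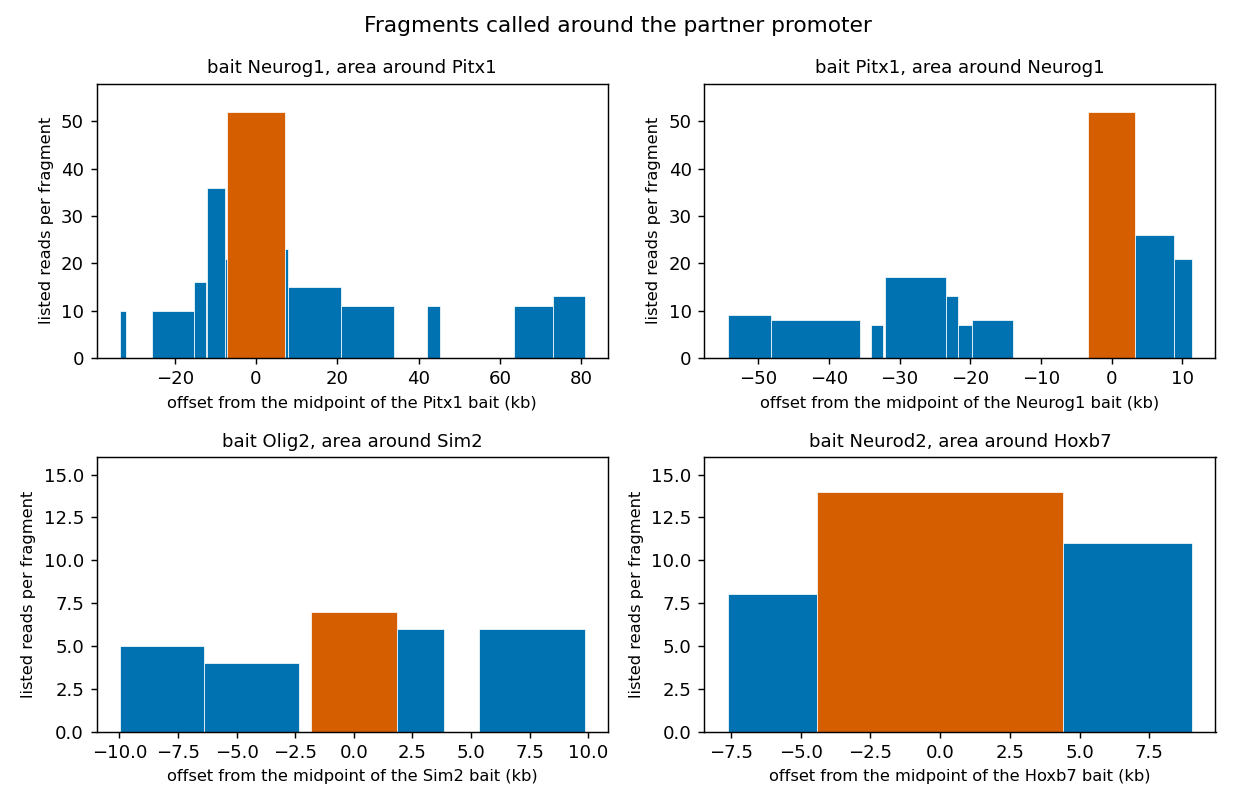
Listed reads (vertical axis) of each called fragment around the partner promoter, by offset from the midpoint of the partner's bait (kb), for Neurog1 and Pitx1 seen from each bait (top), Olig2 with Sim2 (bottom left) and Neurod2 with Hoxb7 (bottom right), the lower panels on a shorter axis. Bar width is fragment length, the orange bar is the partner's bait and gaps are fragments without a call. Reads peak at the partner's bait in all 4 panels, at 52 in the upper panels, 7 at Sim2 and 14 at Hoxb7. The reads are not adjusted for fragment length or capture, and the paper reports a higher background where both ends are baits. The peak alone therefore does not place the contact at the promoter.

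Neurog1 also had contacts far beyond 1 Mb. Barx1, a homeobox gene of tooth and stomach development, stood 7.59 Mb away and was called from both ends on 8 reads, with scores of 12.06 and 15.35. Around it, Neurog1 called 3 of 3 fragments across 13.2 kb. Msx2, a homeobox gene of skull and limb buds, was called from its own bait at 2.78 Mb on 5 reads with a score of 5.2, and Neurog1 in turn called 2 unbaited fragments there on 7 reads each. Nrn1, which encodes the neuritic growth protein neuritin, was called from both ends at 19.5 Mb on 5 reads (7.04 and 7.32), and Gm9979 from its own bait at 15.6 Mb on 4 reads (5.57). One unbaited fragment was called at 42.8 Mb on 4 reads. These calls rest on few reads each. The baits most like Neurog1 in their other ends were Pitx1 (8 shared, 0.211), Barx1 (6 shared, 0.115) and Msx2 (3 shared, 0.0968), that is, promoters it was itself called with. Within 1 Mb, Cxcl14, a chemokine gene 46.5 kb away, was called from its own bait on 34 reads with a score of 19.36.

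Neurod2, which acts in differentiating cortical and cerebellar neurons, combined a dense neighbourhood with a distant contact to the Hoxb cluster. Its bait lies at chr11:98185159-98192675. From 1.98 to 2.05 Mb away, 6 Hoxb promoters were called with it. The Hox genes of this cluster give segments of the body axis their identity. Hoxb7 had 14 reads and scores of 15.27 from Neurod2 and 14.47 from Hoxb7, Hoxb6 had 11 reads (10.16 and 10.11), and Hoxb2 had 11 reads (9.95 and 9.58). Hoxb8 (8 reads), Hoxb3 (8 reads) and Hoxb5 (6 reads) had scores of at most 7.14. Gm11536, a predicted gene inside the cluster whose bait also holds an annotated Hoxb3 start, had 8 reads.

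Around Hoxb7 the Neurod2 bait called 3 of 3 fragments across 16.7 kb, those of Hoxb8, Hoxb7 and Hoxb6, and farther on 4 of 10 fragments across 36.8 kb with Hoxb3, Gm11536, Hoxb2 and an exon of Hoxb4. For Hoxb7 the contact was 1 of many, ranking 21 among the 52 calls of its bait. Gm53, which has a bait 2076 kb from Neurod2, shared 7 other ends with it (Jaccard index 0.163) without a call between them. Cntnap1, a gene of axon-glia junctions at 2.84 Mb, was called from its own bait on 5 reads (8.56). An unbaited fragment at 21.9 Mb was called on 4 reads with a score of 5.32.

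Near Neurod2 the partners were not developmental regulators, and the reads were high. Ikzf3, a lymphoid zinc-finger gene 219 kb away, had 45 reads and scores of 16.36 from Neurod2 and 31.66 from Ikzf3. The neighbouring Zpbp2, a sperm protein gene, had 28 reads (9.33 and 21.17), and Erbb2, a receptor tyrosine kinase gene, had 42 reads (7.67 and 19.9). Ppp1r1b, whose product DARPP-32 relays dopamine signals, lay 22.9 kb away with 80 reads (5.9 and 12.48). 1810046J19Rik (29 reads, 22.48), the adaptor gene Grb7 (21 reads, 19.94), U2.37 (26 reads, 11.88), Pgap3 (29 reads, 10.57) and Psmd3 (7 reads, 10.55) reached the threshold from the partner's bait only. The baits with the most similar other ends were AL591205.1 (12 shared, 0.286) and Ikzf3 (10 shared, 0.238). The highest reads of any member call, 126, belonged to an unbaited fragment 7.42 kb from Neurod2 with a score of only 6.62.

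**Figure D4:**
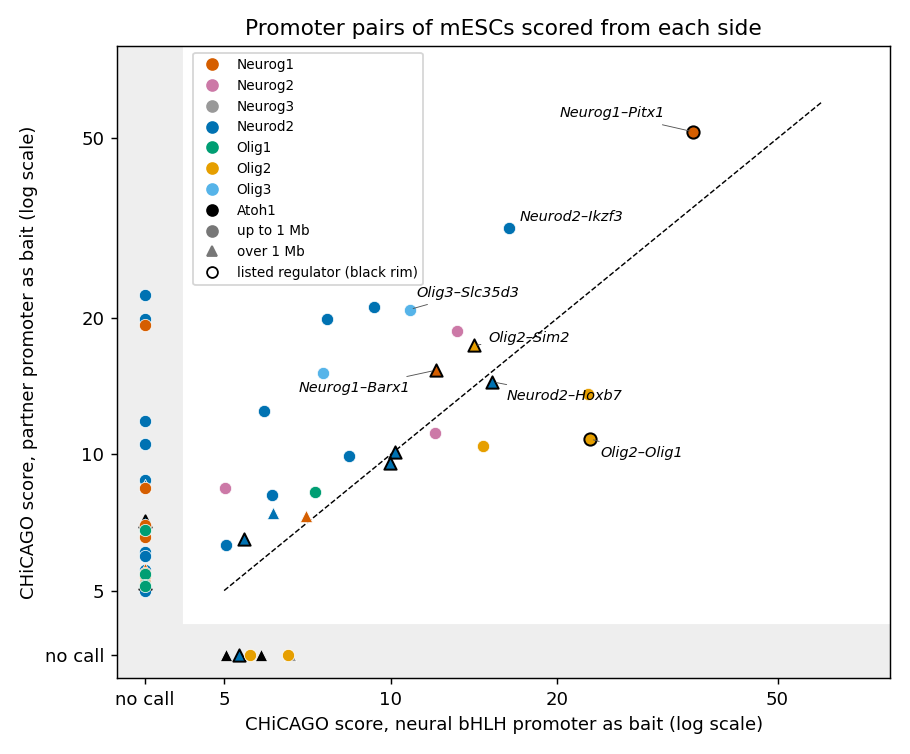
CHiCAGO score of 58 of the 59 promoter pairs of mESCs with the neural bHLH promoter as bait (horizontal, log scale) and with the partner as bait (vertical, log scale), coloured by gene. Triangles span over 1 Mb, a black rim marks a listed developmental regulator and the grey bands hold pairs without a call from that side. The pair of Neurog2 over 1 Mb is not drawn. Of the 25 drawn pairs called from both sides, 18 lie above the dashed line of equal scores, with Neurog1 and Pitx1 at 35.21 and 51.67.

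The score of a pair depended on the side from which it was taken, though the reads are the same. CHiCAGO scales its background separately for baits and for other ends. Among the 26 pairs called from both ends the partner's bait gave the higher score in 18. For Neurod2, 14 promoter pairs were called from the partner's bait alone, as the plot of scores from each side shows.

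Olig1 and Olig2 stand next to each other on chromosome 16, and their promoters formed the only pair of members joined by a call. Olig2 serves motor neuron and oligodendrocyte precursors, and Olig1 the maturation of oligodendrocytes. The pair had 50 reads at 44.9 kb, with scores of 22.9 from Olig2 and 10.82 from Olig1, each the highest of the 14 calls of its bait. The Olig1 bait (chr16:91267099-91274336) called 6 of 6 fragments across 27.4 kb around Olig2, with 189 reads in sum. The Olig2 bait (chr16:91223416-91228258) called 2 of 4 fragments across 10.3 kb around Olig1, with 63 reads.

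Olig2 also reached Sim2, which encodes a bHLH-PAS transcription factor of the midline, at 2.86 Mb. The pair had 7 reads and scores of 14.12 from Olig2 and 17.41 from Sim2. Around Sim2, the Olig2 bait called 5 of 8 fragments across 19.8 kb on 4 to 7 reads each, and the 3 fragments without a call were 173, 489 and 1326 bp long. Olig1 was not called with the Sim2 promoter but reached 2 unbaited fragments beside it, at 2.81 Mb, on 6 and 5 reads. The baits most like Olig2 in their other ends were those of Hlcs (5 shared, 0.313), Ripply3 (4 shared, 0.235) and Ttc3 (2 shared, 0.133), all 3309 to 3366 kb away, and none of them was called with Olig2.

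Within 1 Mb, both Olig genes contacted the bait of U4.8, a small nuclear RNA gene. With Olig2 it had 29 reads and scores of 22.68 and 13.61 at 124 kb, and with Olig1 it had 29 reads and scores of 7.3 and 8.26 at 79.2 kb. U4.8 was also the bait most like Olig1 (7 shared, 0.269), followed by Ifngr2 (2 shared, 0.143) and Olig2 (3 shared, 0.12). Ifngr2, a subunit of the interferon gamma receptor, was called with Olig2 on 14 reads (14.66 and 10.44) at 322 kb.

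Olig3, a gene of dorsal progenitors in the spinal cord and hindbrain, had 3 partner fragments, all at higher coordinates and from 492 to 575 kb away. Slc35d3, a nucleotide sugar transporter gene, had 14 reads and scores of 10.82 from Olig3 and 20.91 from Slc35d3, and the fragment beside it had 7 reads and 5.52. Map3k5, which encodes the stress kinase ASK1, had 10 reads with scores of 7.54 and 15.13. None of the Olig3 calls spanned over 1 Mb.

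Neurog3, the neurogenin of pancreatic endocrine precursors, had 1 call, to the promoter of the netrin receptor gene Unc5b at 1.30 Mb, on 4 reads with a score of 6.57. The unbaited fragment upstream of Neurog3 was in 1 call as well, with a score of 5.14.

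Atoh1, which drives cerebellar granule cells and inner ear hair cells, had 2 calls, both at 57.9 Mb on the same chromosome. They reached the bait of Dlx6os1, a noncoding RNA gene of the Dlx5 and Dlx6 locus (3 reads, 5.82), and the neighbouring bait listed as uce (3 reads, 5.04). The uce bait holds annotated starts of Dlx6 and Dlx6os1. Neither call was made from the other side. Dync1i1 called the same 2 fragments (Jaccard index 0.667), A930038C07Rik called them among its 6 (0.333) and Fezf1 among its 17 (0.118). The Atoh1 bait held only 16 bp upstream of the annotated start, whereas the other 7 baits held 1428 to 2915 bp. This is shown by the 60 bases before the start, chr6:64679080-64679139 in mm9 on the plus strand, with the *Hin*dIII site in capitals.
Atoh1: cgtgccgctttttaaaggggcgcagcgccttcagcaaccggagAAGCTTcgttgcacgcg
The fragment upstream of this site, which carries the rest of the Atoh1 promoter, was in no call and not listed as baited.

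The contacted fragments were also described by CpG density, which the choice of genes did not use. The 8 member baits had a median of 32.2 CpG per kb, from 13.7 for Atoh1 to 57.6 for Olig2, against 16.9 over all baited fragments. Among unbaited partner fragments, the 29 beyond 1 Mb had a median of 25.2 CpG per kb, against 11.03 over the 1479 unbaited other ends beyond 1 Mb in mESCs. Within 1 Mb the 56 unbaited partners had a median of 12.9, against 10.6. The long-range difference was present with and without the Neurog2 calls, at 22.9 for these 16 fragments and 26.01 for the other 13. Many of these fragments lie side by side, at or near promoters that were also called, such as those of Sim2, Barx1 and Msx2. They were not compared with the unbaited other ends of other developmental regulators. Baited partners had a median of 34.5 beyond 1 Mb and 20.1 within it.

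**Figure D5:**
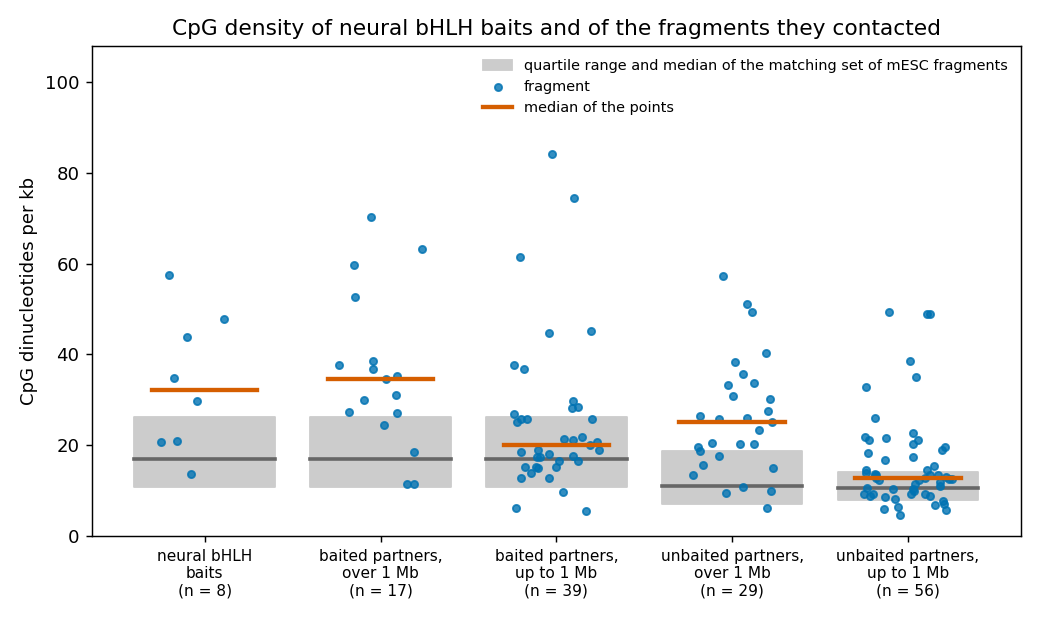
CpG dinucleotides per kb (vertical axis) of the 8 neural bHLH baits and of the fragments they contacted in mESCs, by distance and by whether the fragment was baited. Points are fragments, orange lines are their medians, and grey boxes with a dark line give the quartile range and median of all baited fragments, or of all unbaited other ends at the same distance. The unbaited partners over 1 Mb have a median of 25.2, above the box of all such other ends, which has a median of 11.03.

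Hi-C without capture, which the paper calls pre-capture Hi-C, was set beside the same contacts. It may share material with the CHi-C libraries, so overlap with it is not evidence from an independent experiment. For calls up to 1 Mb, 34 of 116 had both ends in 25-kb bins that were joined in the Hi-C list at an FDR under 0.05, 29.3% (21.2 to 38.5%), against 11.6% of all such calls. Neighbouring fragments often fell in the same bin pair, so fewer separate Hi-C signals than 34 lie behind this share. Its interval takes each call as separate and does not establish an excess. For Neurog1 and Pitx1 the library had 11 read pairs where 0.677 were expected (16.2-fold, FDR 0.000864). Of the 9 short-range fragment pairs of Neurog2, 5 lay within a significant bin pair, all of them the same one. For Neurod2 the count was 15 of 36, and many of these shared a bin pair. The counts were 4 of 27 for Neurog1, all in the bin pair of Pitx1, and 3 of 15 for Olig1, all in the same bin pair. They were 0 of 9 for Olig2 and 0 of 3 for Olig3. The pair of Olig1 and Olig2 was counted under Olig2 only, and it lay within no significant bin pair. The 3 Olig1 fragments in a significant bin pair belonged to the called area around Olig2, at 33.9 to 40.7 kb from Olig1. Their bin pair had 172 read pairs, 3.13-fold the expected number, with an FDR given as 0. The absence for the pair of baits therefore does not show that Hi-C lacked an Olig1 contact near Olig2.

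Over 1 Mb the share lay below that of the whole list, but not detectably so without Neurog2. Of the 56 long calls, 17 lay within a significant pair of 1-Mb bins, 30.4% (18.8 to 44.1%), against 57.2% of all such calls. Without Neurog2 the count was 17 of 38, 44.7% (28.6 to 61.7%). The sets were not matched for distance, and 579 of all such calls were *trans*-chromosomal but none of the members' calls were. The share of possible *cis*-chromosomal bin pairs in the Hi-C list varied with distance, at 21.6% for 1 bin apart, 4.96% for 3 and 9.49% for 10. All 17 long-range fragment pairs of Neurog2 were outside the list. The bins of Neurod2 and Hoxb7, of Neurog1 and Msx2, and of Neurog1 and Nrn1 were not listed either. Listed were Olig2 and Sim2 (814 read pairs, 504 expected, 1.61-fold), Neurog1 and Barx1 (374 and 182, 2.06-fold) and Atoh1 and Dlx6os1 (169 and 61.7, 2.74-fold), each with an FDR given as 0. A 1-Mb bin holds many genes, so these values describe the wider area and not the promoters alone.

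In GM12878 cells the same symbols had fewer and shorter calls, and species, cell type and bait design differ together from mESCs and cannot be told apart. Over 1 Mb were 0 of 26 calls, which allows a share of up to 11.5% (3 of 26), against 1.95% of all GM12878 calls, so the count does not differ detectably from that list. The median distance was 230.0 kb, against 174 kb over all calls. Bait-to-bait calls were 10 of 26, 38.5% (20.2 to 59.4%), against 29.4%. Of these 10, 0 spanned over 1 Mb, against 2.65% of all, and 0 had a listed developmental regulator as partner, which allows up to 30% (3 of 10), against 1.04% of all ends. All 10 lay within 1 Mb, where 1.06% of all ends had a listed partner, and over 1 Mb 0.207% had one. Promoter pairs called from both ends were 1 of 9, 11.1% (0.281 to 48.2%), against 18.5%. Scores of at least 10 were reached by 6 of 26 calls, 23.1% (8.97 to 43.6%), against 16.3%.

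NEUROG2 had most of the human calls, 17, all to fragments at lower coordinates and from 170 to 416 kb away. The top of these were AP1AR (13 reads, 16.74) and the shared ALPK1 and TIFA bait (10 reads, 16.6, at 228 kb). NEUROD2 had 5 calls, led by PPP1R1B (49 reads, 36.84, at 13.3 kb). NEUROG1 had 1, with TIFAB (10 reads, 9.23), OLIG1 had 2 and OLIG3 had 1.

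Partner symbols found in both cell types numbered 6, for 2 genes, and all were near neighbours. The share of partner symbols found in both was not computed over all genes, so whether these counts are high or low is not known. For NEUROG2 these were ALPK1 and TIFA, 2 of its 4 partner symbols in mESCs and 2 of 5 in GM12878 cells. For NEUROD2 they were GRB7, IKZF3, PPP1R1B and ZPBP2, 4 of 27 and 4 of 5. The reads of the GRB7 pair were 21 in mESCs and 15 in GM12878 cells, those of the PPP1R1B pair 80 and 49, and those of the IKZF3 pair 45 and 10. None of the long-range partners was shared, but 0 of the 26 GM12878 calls spanned over 1 Mb. The comparison could therefore not show a long contact in both cell types. The fragments with the annotated starts of SIM2 were in no GM12878 call, and that of PITX1 was in 1.

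The other genes of the pathway differed in how far their calls reached. Of 12 further proneural and neural bHLH genes, 10 were in a mESC call, with 100 calls in all. Their bait-to-bait calls had a listed regulator as partner in 3 of 53, where 3.87% of all partner ends in mESCs were listed. Of the 100 calls, 19 spanned over 1 Mb, against the 3.94% of all mESC calls. These came from Ptf1a (12 of 31 calls), Bhlhe22 (6 of 11) and Nhlh2 (1 of 1, *trans*-chromosomal), and the last pair of these genes were named after their values were seen. Ptf1a, a gene of pancreas and inhibitory neurons, had the most calls (31), followed by Atoh8 (24, none over 1 Mb) and Bhlhe23 (15, none over 1 Mb). Of 20 E protein, Id, Hes, Hey and Notch pathway genes, 18 were in a call, with 180 calls in all. A listed regulator was the partner in 4 of 73 bait-to-bait calls, beside the same 3.87%. Over 1 Mb were 2 of the 180 calls, beside the same 3.94%. No interval was computed for the listed partners of either list, so a difference from all ends is not established. The Notch ligand genes Dll1 (49), Dll4 (30) and Jag2 (25) had the most calls. No call joined a gene of either list to a member. Only 0.569% of all mESC calls were *trans*-chromosomal, and how many of these genes share a chromosome with a member was not analysed. Nothing is concluded from this absence.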

How the data were processed

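The authors mapped read pairs to mm9 or hg19 with HiCUP (Bowtie 1.1.0 in the submitters' processing notes), kept pairs with an end on a bait and ran CHiCAGO jointly on all replicates of a cell type. The deposited read count is the rounded average of the replicates, each weighted by its size factor, and the deposited score is the CHiCAGO score. For Hi-C, the authors deposited the count of read pairs per bin pair, the signal expected by HOMER (4.7 in the notes) from coverage and distance, and FDR-adjusted p-values. A further 10 columns of the Hi-C lists were not used.

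Calls were counted as listed, so a promoter pair with a call in each direction counts as 2. Distances are between fragment midpoints. Areas join called fragments at most 20 kb apart. A call lay within a Hi-C bin pair if both midpoints did, with an FDR under 0.05. All listed fragments (100%) matched an in silico *Hin*dIII digest, and annotations came from the GENCODE release for mm9. Python 3.11.15 and scipy 1.17.1 were used, and the functions were tested on simulated data. Members, gene lists and tests were chosen with earlier results of these data known. Genes named are the members, every promoter partner over 1 Mb, partners within 1 Mb with a score of at least 10, the 3 highest calls per member, the 3 most similar baits with at least 2 shared fragments, and the 3 genes with most calls in each other list. Alternatives were a score of 10, pairs counted once, the browser list, at least 10 reads, an FDR of 0.01 and, added after seeing the data, leaving out members and counting long-range partners once. The partner of Neurog2 over 1 Mb is not reported here by name, position or score, though its calls stay in all counts.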

Additional observations from a re-analysis of the deposited data

How the results depend on the processing

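Of 40 alternative values, 29 stayed within the interval of the reported value or, for counts, within 1.5 times of it. With a score of at least 10, the calls with a neural bHLH promoter fell to 58 in mESCs and 6 in GM12878 cells. The mESC shares then became 62.1% bait-to-bait (47.7% over all calls), 43.1% over 1 Mb (9.65%), 42.1% with a listed regulator as partner (8.96%) and 51.5% within 25-kb Hi-C bin pairs (28.5%), and the median distance became 430 kb (109.5 kb). With at least 10 reads per call, 14.4% spanned over 1 Mb (0.956% over all calls), and these long calls were of Neurog2 and Neurod2 only. Counting each fragment pair once gave 40.4% bait-to-bait (31.1%). Leaving out Neurod2 gave 40.7% bait-to-bait, near the 36.3% of all calls. Leaving out Neurog2 gave 44.7% of long calls within 1-Mb Hi-C bin pairs (28.6 to 61.7%), an interval that includes the 57.2% of all such calls. Each of these shares but the last lay above that of all calls. No paired analysis was possible because the authors pooled the replicates of each cell type into 1 set of calls, and no replicate could be left out. The longest calls rest on few reads each, and a gene without a call is not shown to lack contacts, since the reads of pairs below the score threshold were not analysed here.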
